A study of Mus musculus with 12 samples.

Results

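Peroxisomes are small organelles that shorten very long and branched fatty acids, make the first intermediates of ether lipids, and both produce and remove hydrogen peroxide. Their proteins are made in the cytosol and brought in by peroxins, the products of the Pex genes. ABC transporters such as Abcd3 carry fatty acids across the membrane. In the kidney the organelle is abundant in the proximal tubule, and in rodents many of its fatty acid enzymes are induced by the nuclear receptor PPAR alpha. A set of 38 genes for peroxisome assembly and peroxisomal enzymes was followed here in mouse kidney, found by gene name among the 57490 genes of the deposited counts. It holds 12 peroxins, 3 transporters and 23 enzymes.

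Polyadenylated RNA of kidney was sequenced from 12 male BKS mice, 4 in each of 3 groups and each 13 weeks old. The labels give the sample as whole tissue and the design text as renal cortex, so which was taken is unclear. Ctrl mice were non-diabetic heterozygotes (db/m, also written db/+, and called wild-type in the genotype label). Model mice were db/db (BKS.Cg-Dock7m +/+ Leprdb/JNju), whose leptin receptor is defective and which develop obesity and diabetes. Both groups received purified water by gavage, although the labels list no treatment for Ctrl. YHY mice were db/db mice given a water extract of the herbal decoction YHY at 6.24 g/mL by daily gavage for 4 weeks, a concentration from the labels that does not tell which dose group of the study was sequenced. The db/db mice had been selected for high blood glucose, and the mutation is present in every tissue, so genotype, obesity and diabetes cannot be told apart. YHY was not given to db/m mice.

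The libraries held between 24415658 and 33276634 counts each. Transcripts of the mitochondrial genome took 18.6%, 22.7%, 18.4% and 18.5% of the counts in Ctrl 1 to 4, 41.2%, 58.9%, 55.3% and 53.4% in Model 1 to 4 and 53.8%, 64.6%, 54.6% and 54.2% in YHY 1 to 4. The 95% Wilson interval of the share was 41.15% to 41.18% in Model 1 and 64.58% to 64.62% in YHY 2, and such intervals cover counting error only. The share thus differed between Ctrl and both db/db groups without overlap. Of the counts outside the mitochondrial genome, the 38 genes took 1.25%, 1.197%, 1.28% and 1.02% in Ctrl 1 to 4, 0.807%, 0.648%, 0.753% and 0.669% in Model 1 to 4, and 0.530%, 0.654%, 0.596% and 0.791% in YHY 1 to 4. Every db/db mouse therefore gave a smaller share of its remaining reads to these genes than every Ctrl mouse, while Model and YHY overlapped. The 95% Wilson interval was 0.525% to 0.534% in YHY 1, the mouse with the smallest share.

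**Figure D1:**
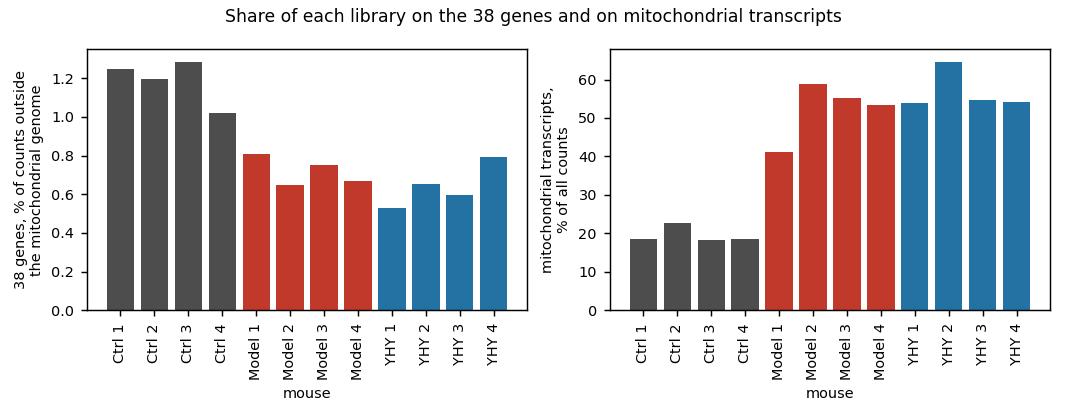
Percent of counts outside the mitochondrial genome that fell on the 38 genes (left) and percent of all counts on mitochondrial transcripts (right), 1 bar per mouse, grey for Ctrl, red for Model and blue for YHY. The 38 genes took 1.02% to 1.28% in Ctrl and 0.530% to 0.807% in the db/db mice.

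The labelled tissue was checked against markers. The 14 proximal tubule markers all passed the filter on low counts. Their summed level was 9628, 11742, 10366 and 8243 CPM (TMM-scaled counts relative to library size) in Ctrl 1 to 4, 7176, 7067, 7517 and 5985 in Model 1 to 4 and 3785, 6231, 4377 and 7289.9 in YHY 1 to 4. The Ctrl mice lay above the others, and Slc27a2, itself a peroxisomal acyl-CoA synthetase, was the most abundant marker. In Model against Ctrl 6 of the 14 were lower and 1 higher, where 18.5% and 19.6% of all genes were. The markers did not move together. Slc22a7, an organic anion transporter, went from 271, 362, 312 and 171 CPM in Ctrl 1 to 4 to 3.03, 1.57, 4.80 and 3.21 in Model 1 to 4, and Slc7a13, an amino acid transporter, fell by 2.33 on the log2 scale, whereas Slc34a1, the main phosphate transporter, had a log2 fold change of 0.06 ± 0.29 (SE) that did not pass the test, and Slc22a8 rose by 1.13. In bulk tissue, fewer proximal tubule cells and less RNA of these genes per cell cannot be told apart, and the part of these markers in the results was not tested. Adipocyte markers were near 0, with at most 16 counts of any of 5 genes in any mouse. The 5 liver markers summed to 120.4 to 288 CPM in a mouse, most of it Serpina1a, and Ttr and Apoa1 were higher in Model, while Cps1 had at most 2 counts.

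Model against Ctrl asks what differs in the diabetic kidney. Most of the 37 genes that could be tested were lower in Model: 22 were lower and 3 higher at an adjusted P under 0.05 (edgeR quasi-likelihood test). Among the 17431 genes that entered the fit, 18.5% passed as lower and 19.6% as higher. Across the set the median log2 fold change was -0.65, against 0.04 for all genes in the fit. In each of the 25 genes that passed, the 4 Model mice did not overlap the 4 Ctrl mice. This separation was read in genes already called, with no share over all genes beside it, and adds no evidence to the calls. Abcd2, a transporter with 0 to 11 counts in a mouse, was too low to be tested.

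YHY against Model asks what the decoction changed in db/db mice. Few genes passed: Pex7, Pex19, Amacr, Scp2 and Dao were lower, and Abcd3 and Xdh were higher. These 5 and 2 of 37 stand beside 7.62% lower and 5.63% higher among all genes, and the median was -0.14 against 0.02. The counts moved when single mice were left out, to 2 to 6 lower and 1 to 4 higher. In the same fits 4.02% to 9.46% of all genes were lower and 2.32% to 5.89% higher. The median of the set moved too, to -0.30 without YHY 4 and to -0.09 without YHY 1. In 4 of the 7 genes the YHY and Model mice did not overlap, again with no share over all genes to set beside it.

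YHY against Ctrl places the treated mice against non-diabetic ones and shares its mice with both other comparisons. In it 27 genes were lower and 3 higher, where 24.2% and 26.1% of all genes were, and the median was -0.84 against 0.10. With the mitochondrial transcripts, whose share differed between Ctrl and db/db mice, removed before scaling, Model against Ctrl had 22 lower and 3 higher genes. YHY against Model then had 4 and 2, since Pex19 no longer passed, and YHY against Ctrl had 27 and 3. Among all genes in that fit, 19.3% were lower and 19.9% higher in Model against Ctrl. The shares were 7.45% and 6.39% in YHY against Model, and 24.5% and 27.2% in YHY against Ctrl. That removal bears on the scaling of the libraries, and any other part of the mitochondrial share in the results was not tested.

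**Figure D2:**
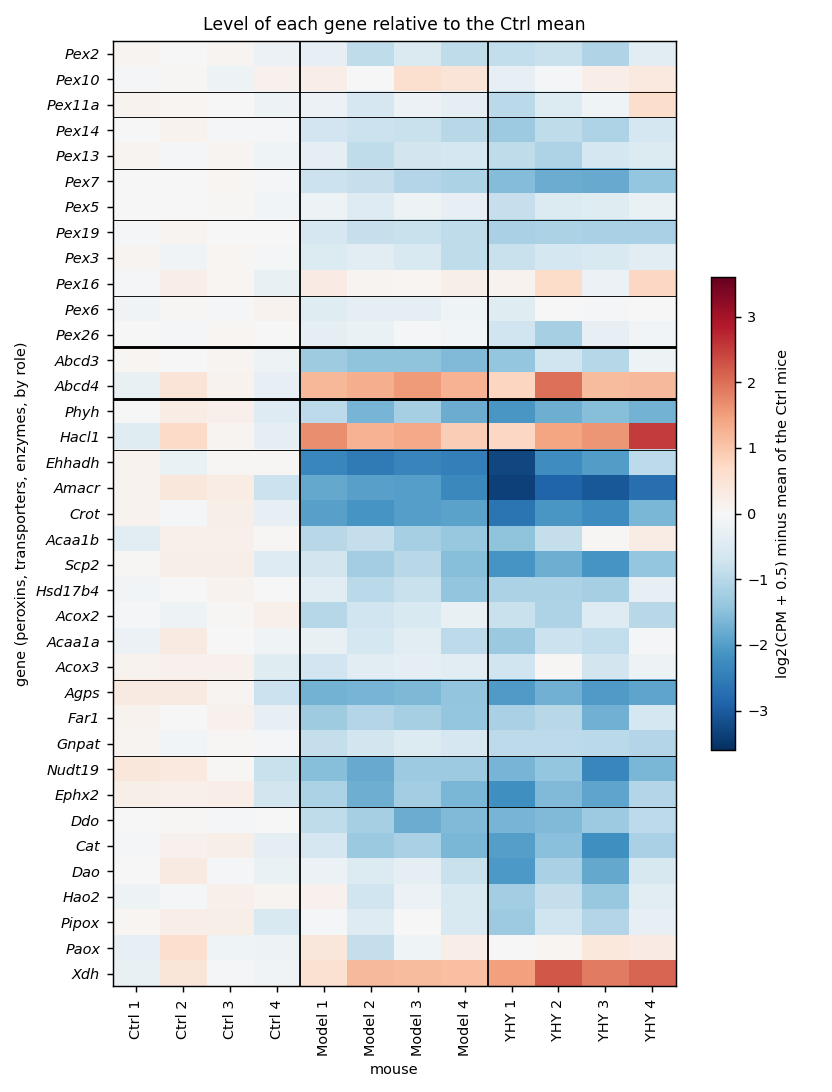
Level of each of the 37 tested genes (rows, by role) in each of the 12 mice (columns), as log2(CPM + 0.5) minus the mean of the Ctrl mice; blue is lower and red higher. Most rows are blue in both db/db groups, Abcd4, Hacl1 and Xdh are red, and Pex10, Pex16 and Paox are near white in most mice.

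Of the 12 peroxins, 6 passed as lower in Model against Ctrl and the other 6 did not pass, beside 18.5% lower among all genes, and the median log2 fold change was -0.47. Pex7 and Pex19 were lower in YHY against Model, beside 7.62% of all genes.

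Pex7 is the receptor that brings in enzymes with the N-terminal type of targeting signal, among them Phyh and Agps. Pex7 stood at 41.1, 42.2, 43.8 and 39.2 CPM in Ctrl 1 to 4, at 24.3, 23.1, 19.6 and 18.5 in Model 1 to 4 and at 13.8, 11.7, 11.5 and 15.6 in YHY 1 to 4. The 3 groups lay apart, each below the one before. It fell by 0.96 ± 0.14 (SE) on the log2 scale in Model against Ctrl (adjusted P = 0.000107) and by 0.70 ± 0.14 in YHY against Model (adjusted P = 0.0061).

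Pex19 is the cytosolic chaperone for membrane proteins of the organelle. Pex19 stood at 62.0, 69.9, 66.4 and 64.6 CPM in Ctrl 1 to 4, at 43.3, 36.8, 37.2 and 34.5 in Model 1 to 4 and at 29.2, 29.7, 28.8 and 29.1 in YHY 1 to 4. Again no group overlapped another, and the 4 YHY mice had a coefficient of variation of 1.29%. Pex19 fell by 0.79 ± 0.12 in Model against Ctrl (adjusted P = 0.000121). In YHY against Model its log2 fold change was -0.38 ± 0.12 (adjusted P = 0.047). That call was lost in 19 of 20 alternative fits, among them those without any 1 of the 12 mice, with values of -0.42 to -0.29 over the 20.

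Pex14 and Pex13 form the docking site of the import receptors. Pex14 stood at 23.4, 25.9, 22.7 and 23.3 CPM in Ctrl 1 to 4, at 14.6, 13.8, 13.6 and 11.8 in Model 1 to 4 and at 9.39, 12.3, 10.6 and 15.1 in YHY 1 to 4. All 8 db/db mice lay below all Ctrl mice, and Model and YHY overlapped. The log2 fold change of Pex14 in Model against Ctrl was -0.83 ± 0.16 (adjusted P = 0.000748). Pex13, Pex2, a ubiquitin ligase that recycles receptors, and Pex3, the membrane anchor for Pex19, fell by 0.60 to 0.65.

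Pex11a, which acts in peroxisome division and is a target of PPAR alpha, did not pass in any of the 3 comparisons. Its level was 43.7, 41.9, 39.9 and 35.3 CPM in Ctrl 1 to 4, 34.7, 26.3, 34.4 and 31.2 in Model 1 to 4 and 20.3, 28.6, 35.8 and 62.8 in YHY 1 to 4. The YHY mice spanned the range of both other groups, with YHY 4 above all 11 other mice, and the Model mice lay just below the Ctrl mice. Its log2 fold change was -0.34 ± 0.25 in Model against Ctrl (adjusted P = 0.293) and 0.22 ± 0.25 in YHY against Model (adjusted P = 0.61). Pex5, the receptor for the C-terminal type of signal, and the exporter genes Pex6 and Pex26 had values of -0.19 to -0.32 in Model against Ctrl and did not pass. Pex10 (0.35) and Pex16 (0.16) had positive values that did not pass, and the interval of Pex16 overlaps the gene Large2 on the other strand, which collected 97.2% as many counts.

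Of the 2 transporters tested, Abcd3 was lower and Abcd4 higher in Model against Ctrl, where 18.5% of all genes were lower and 19.6% higher. Abcd3 imports branched and dicarboxylic fatty acids. Abcd3 stood at 199.6, 195, 206 and 168 CPM in Ctrl 1 to 4, at 78.6, 69.3, 70.2 and 63.8 in Model 1 to 4 and at 73.0, 116, 94.6 and 167 in YHY 1 to 4. The Model mice lay below all others except YHY 1. Abcd3 fell by 1.45 ± 0.21 in Model against Ctrl (adjusted P = 8.35e-05). In YHY against Model it rose by 0.68 ± 0.20 (adjusted P = 0.0383), with 3 of 4 YHY mice above every Model mouse. This call was lost in 11 of 20 alternative fits, among them those without Ctrl 1, Ctrl 3, Model 2, Model 3, Model 4, YHY 2 or YHY 4, with values of 0.42 to 0.83 over the 20.

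Abcd4, whose product exports cobalamin from lysosomes, rose. Its level was 13.1, 22.0, 17.2 and 12.8 CPM in Ctrl 1 to 4, 37.2, 39.8, 47.4 and 38.8 in Model 1 to 4 and 27.5, 64.6, 35.7 and 36.2 in YHY 1 to 4. Every db/db mouse was above every Ctrl mouse, and YHY 2 stood highest. The rise was 1.32 ± 0.24 on the log2 scale in Model against Ctrl (adjusted P = 0.000462), and YHY against Model gave 0.01 ± 0.23 (adjusted P = 0.993).

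**Figure D3:**
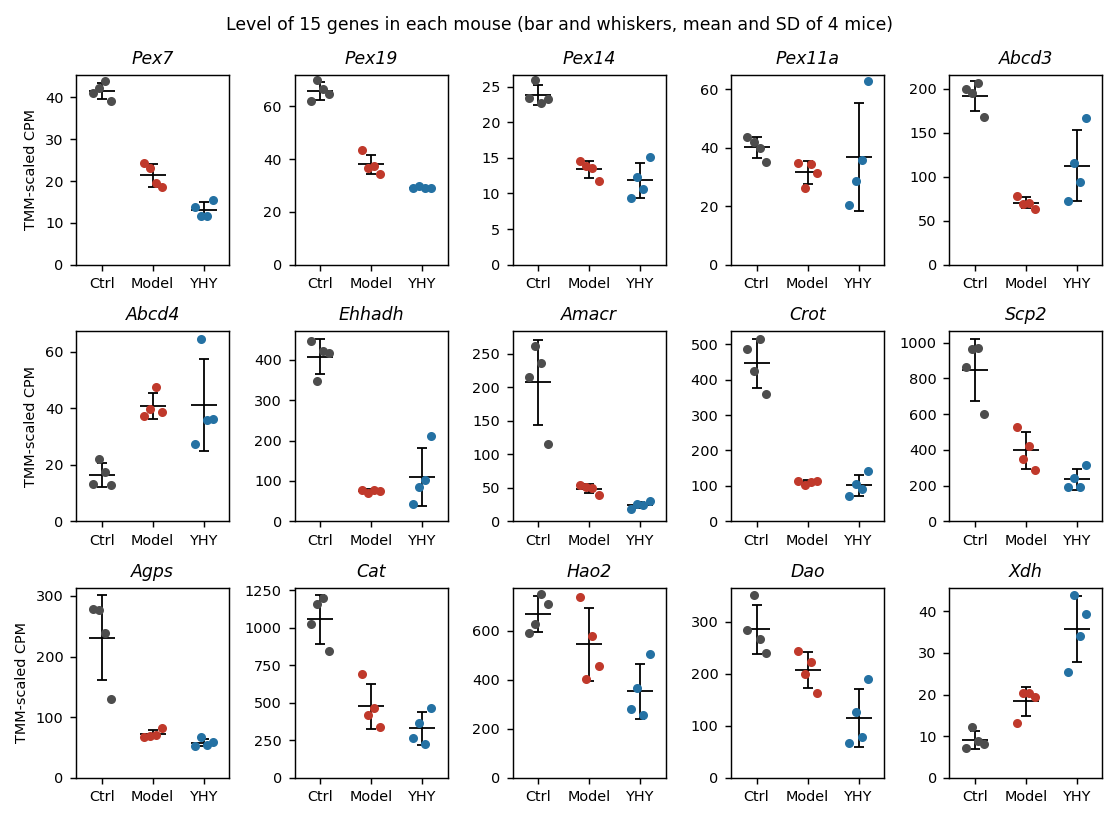
TMM-scaled CPM of 15 of the 38 genes in each mouse (points), with mean and SD of 4 mice; the vertical axes start at 0. Pex7, Pex19 and Amacr separate all 3 groups downwards and Xdh upwards, while Ehhadh, Abcd3 and Pex11a spread widely among the YHY mice.

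Of 9 enzymes of fatty acid beta-oxidation, 7 passed as lower in Model against Ctrl, beside 18.5% of all genes. Ehhadh, a bifunctional enzyme of the middle steps and a classic PPAR alpha target, stood at 446, 346, 422 and 416 CPM in Ctrl 1 to 4, at 78.5, 68.8, 77.5 and 74.0 in Model 1 to 4 and at 41.7, 85.2, 101 and 211 in YHY 1 to 4. The Model mice were tightly grouped far below Ctrl, and the YHY mice ran from below Model to between Model and Ctrl. Ehhadh fell by 2.45 ± 0.34 in Model against Ctrl (5.46 times lower, adjusted P = 6.5e-05). YHY against Model gave 0.55 ± 0.32 (adjusted P = 0.273), and the spread of YHY (SD 71.9 on a mean of 109.6 CPM) exceeded the difference.

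Amacr, the racemase that readies branched fatty acids for this pathway, stood at 215, 261, 236 and 116 CPM in Ctrl 1 to 4, at 54.4, 51.2, 49.5 and 39.3 in Model 1 to 4 and at 18.8, 26.3, 23.4 and 29.6 in YHY 1 to 4. Ctrl 4 was the lowest Ctrl mouse but remained above all db/db mice, and every YHY mouse was below every Model mouse. Amacr fell by 2.09 ± 0.23 in Model against Ctrl (adjusted P = 1.09e-05) and by 0.99 ± 0.22 in YHY against Model (adjusted P = 0.00996). In YHY against Ctrl it was -3.08 ± 0.24, the largest among the 37 genes.

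Crot, which makes carnitine esters that leave the organelle, stood at 487, 424, 514 and 359 CPM in Ctrl 1 to 4, at 113, 102, 112 and 115 in Model 1 to 4 and at 70.3, 104, 91.2 and 142 in YHY 1 to 4. Model and YHY overlapped and both lay below Ctrl. Crot fell by 2.01 ± 0.20 in Model against Ctrl (adjusted P = 5.63e-06), and YHY against Model gave -0.12 ± 0.19 (adjusted P = 0.747).

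Scp2, the thiolase and sterol carrier of the last step for branched chains, stood at 865, 965, 969 and 599 CPM in Ctrl 1 to 4, at 529, 350.0, 419 and 289 in Model 1 to 4 and at 189, 244, 193 and 315 in YHY 1 to 4. Ctrl lay above both other groups, and of the YHY mice only YHY 4 reached the Model range. Scp2 fell by 1.10 ± 0.23 in Model against Ctrl (adjusted P = 0.00149) and by 0.75 ± 0.23 in YHY against Model (adjusted P = 0.0389). The latter call was lost in 9 of 20 alternative fits, among them those without any 1 of Model 1 to 3 or YHY 1 to 3, with values of -0.93 to -0.59 over the 20. Hsd17b4, the other bifunctional enzyme, and Acox2, a branched-chain oxidase, fell by 0.85 and 0.62 in Model. The thiolase Acaa1b was 2.17 times lower in Model, and its near-identical copy Acaa1a (-0.55) did not pass. Reads can be split between the pair, so both values are uncertain. Acox3 (-0.48) did not pass.

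In the oxidation of 3-methyl fatty acids, Phyh carries out the first hydroxylation. Phyh stood at 587, 699, 663 and 419 CPM in Ctrl 1 to 4, at 301, 183, 254 and 168 in Model 1 to 4 and at 135, 171, 202 and 179 in YHY 1 to 4. The db/db mice were all below Ctrl, with Model and YHY overlapping. Phyh fell by 1.39 ± 0.22 in Model against Ctrl (adjusted P = 0.000181), and YHY against Model gave -0.40 ± 0.22 (adjusted P = 0.237). Hacl1, the lyase of the next step, rose by 1.40 from a mean of 2.94 CPM, but it overlaps Btd on the other strand, which had 883% of its counts. The use of strand in the counting is not given in the sources used here, so the rise of Hacl1 is uncertain. The same holds, with fewer counts on the overlapping gene, for Gnpat (43.1% of its counts), Pex13 (29.3%), Acaa1b (18.8%) and Acaa1a (17.5%). Hsd17b4 overlaps the pseudogene Cd63-ps on its own strand, which had 40.4% of its counts.

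All 3 enzymes that start ether lipid synthesis were lower in Model, beside 18.5% of all genes. Agps, which forms the ether bond, stood at 279, 277, 239 and 129.7 CPM in Ctrl 1 to 4, at 67.5, 69.3, 71.2 and 81.7 in Model 1 to 4 and at 53.0, 66.5, 53.7 and 58.7 in YHY 1 to 4. Each YHY mouse was below each Model mouse by a small margin, and Ctrl 4 was nearest to them. Agps fell by 1.67 ± 0.21 in Model against Ctrl (adjusted P = 2.68e-05), and YHY against Model gave -0.32 ± 0.20 (adjusted P = 0.312). Far1, which supplies the fatty alcohol, fell by 1.25 and Gnpat, the acyltransferase of the first step, by 0.66.

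Of the hydrolases, Nudt19, which cleaves coenzyme A and is strongly expressed in mouse kidney, stood at 1039.6, 999, 807 and 453 CPM in Ctrl 1 to 4, at 269.7, 225, 319 and 319 in Model 1 to 4 and at 248, 296, 152 and 249 in YHY 1 to 4. Ctrl 4 was again the lowest of its group without reaching the db/db mice. Nudt19 fell by 1.54 ± 0.26 in Model against Ctrl (adjusted P = 0.000273), and YHY against Model gave -0.26 ± 0.25 (adjusted P = 0.538). Ephx2, the soluble epoxide hydrolase, fell by 1.47 in Model.

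Of 7 oxidases and peroxide-handling enzymes, 2 passed as lower and 1 as higher in Model against Ctrl (28.6% and 14.3%, where 18.5% and 19.6% of all genes did). By mean FPKM over the 12 mice, the most abundant of the 38 genes were Hao2, Cat and Phyh, with 327 ± 35.8, 404 ± 61.8 and 313 ± 65.8 FPKM (counts per kilobase of gene length, scaled to library size; SD, n = 4) in Ctrl. Cat encodes catalase, which breaks down hydrogen peroxide. Cat stood at 1024, 1159, 1200.0 and 842 CPM in Ctrl 1 to 4, at 688, 416, 467 and 337 in Model 1 to 4 and at 262, 365, 224 and 465 in YHY 1 to 4. No db/db mouse reached the Ctrl range, and Model 1 came nearest. Cat fell by 1.15 ± 0.25 in Model against Ctrl (adjusted P = 0.00219), and YHY against Model gave -0.54 ± 0.25 (adjusted P = 0.171).

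Hao2, which oxidises hydroxy acids and yields peroxide, stood at 589, 629, 750.0 and 709 CPM in Ctrl 1 to 4, at 736, 404, 578 and 458 in Model 1 to 4 and at 282, 368, 257 and 506 in YHY 1 to 4. Ctrl and Model overlapped, and all YHY mice were below Ctrl. It passed in YHY against Ctrl (log2 fold change -0.92 ± 0.23, adjusted P = 0.00348) and did not pass in Model against Ctrl (-0.30 ± 0.23) or YHY against Model (-0.62 ± 0.23). In Ctrl the mean FPKM of Cat was above that of Hao2. In Model it was 265 ± 72.0 for Hao2 and 183 ± 57.7 for Cat, and in YHY 172 ± 54.9 and 126 ± 41.6, with overlapping spreads.

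Dao, the D-amino acid oxidase of the proximal tubule, stood at 284, 351, 267 and 239 CPM in Ctrl 1 to 4, at 244, 199, 222 and 163 in Model 1 to 4 and at 66.4, 126, 78.6 and 189 in YHY 1 to 4. Neighbouring groups overlapped, and YHY lay wholly below Ctrl. Dao had a log2 fold change of -0.46 ± 0.27 in Model against Ctrl (adjusted P = 0.184) and of -0.85 ± 0.27 in YHY against Model (adjusted P = 0.047). The latter call was lost in 12 of 20 alternative fits, among them those without any 1 of Ctrl 1 to 3, Model 1 to 4 or YHY 1 to 3, with values of -1.199 to -0.66 over the 20. Ddo, the D-aspartate oxidase, fell by 1.36 in Model. Pipox, which oxidises sarcosine and pipecolate, and the polyamine oxidase Paox did not pass there (-0.29 and -0.07), and Paox overlaps the far more abundant Echs1 on the other strand.

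Xdh, the xanthine dehydrogenase of purine breakdown, rose. Its level was 7.25, 12.1, 8.72 and 8.17 CPM in Ctrl 1 to 4, 13.2, 20.5, 20.3 and 19.4 in Model 1 to 4 and 25.5, 43.8, 34.1 and 39.3 in YHY 1 to 4. The 3 groups did not overlap, each above the one before. Xdh rose by 1.02 ± 0.21 in Model against Ctrl (adjusted P = 0.0012) and by 0.96 ± 0.20 in YHY against Model (adjusted P = 0.00743).

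**Figure D4:**
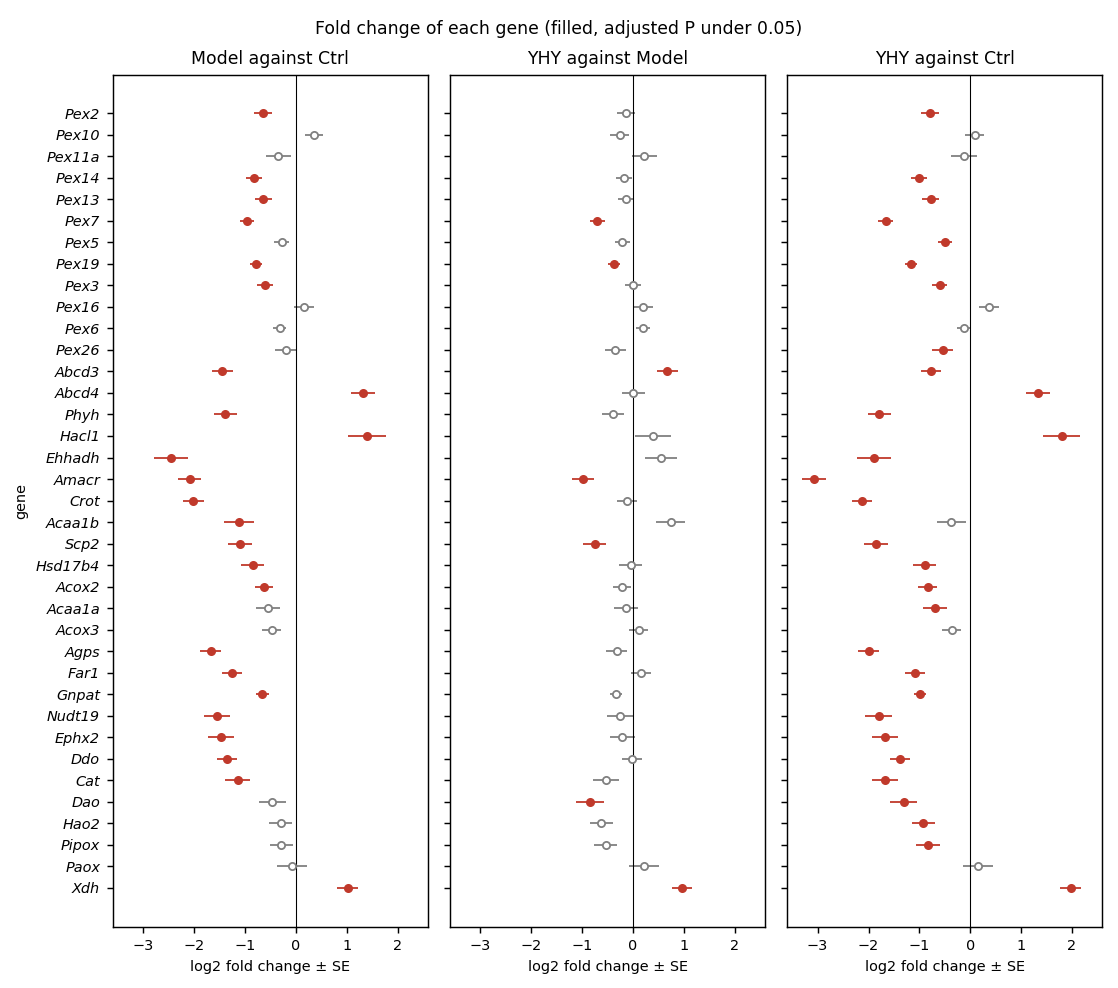
Log2 fold change with SE of the 37 tested genes in the 3 comparisons; filled red points passed at an adjusted P under 0.05. Among those that passed, Model against Ctrl has 22 points left of 0 and 3 right of it, and YHY against Model has 5 and 2.

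Individual mice differed across the set. Ctrl 4 had the lowest value of its group in 20 of 37 genes, Model 1 the highest of its group in 21, YHY 1 the lowest in 24 and YHY 4 the highest in 26. The median coefficient of variation over the 37 genes was 14.1% among the Ctrl mice, 15.4% among the Model mice and 25.4% among the YHY mice. Within YHY, Ehhadh varied by 65.6%. In summed CPM of the 38 genes, YHY 4 (4173) was within the Model range of 3258 to 4551, and YHY 1 (2361), YHY 2 (3219) and YHY 3 (2639) were below it.

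Of 43 other peroxisomal genes, 20 of 39 tested were lower and 1 higher in Model against Ctrl (median log2 fold change -0.46), beside 18.5% and 19.6% of all genes. In YHY against Model 6 were lower and 1 higher, beside 7.62% and 5.63%. Mpv17l, a membrane protein, stood at 719, 614, 669 and 441 CPM in Ctrl 1 to 4 and at 93.8, 95.6, 143 and 166 in Model 1 to 4, a log2 fold change of -2.30 ± 0.23 (adjusted P = 5.72e-06). Pecr, an enoyl-CoA reductase, fell by 1.69 in Model and by a further 1.32 in YHY against Model, and Idh1, a source of NADPH, fell by 1.27 in the latter. In both genes YHY 4 lay above Model 4, at 84.7 against 70.9 CPM for Pecr and 216 against 186 for Idh1. Acsl1, an acyl-CoA synthetase, rose by 1.05 in YHY against Model, every YHY mouse (133, 167, 237 and 321 CPM in YHY 1 to 4) above every Model mouse. The 1 gene that rose in Model, Hao1, had 0, 4, 0 and 0 counts in Ctrl 1 to 4 and 2 to 28 in Model, so no fold is given. In YHY against Ctrl 4 were higher, Hao1, Acsl1, Acot3, a thioesterase (1.38), and Dnm1l, a fission factor (0.38), and 20 were lower, beside 26.1% higher and 24.2% lower among all genes. Agxt and Uox had 0 counts in every mouse.

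Of 11 PPAR regulators and partners, 2 were higher and 3 lower in Model (18.2% and 27.3%, where 19.6% and 18.5% of all genes were). Ppara itself was low, at 3.05, 3.78, 2.52 and 4.21 CPM in Ctrl 1 to 4, 4.54, 5.53, 5.07 and 3.55 in Model 1 to 4 and 5.19, 10.3, 4.84 and 6.90 in YHY 1 to 4. It did not pass in Model against Ctrl (0.46 ± 0.28, adjusted P = 0.202) and passed in YHY against Ctrl (1.00 ± 0.28, adjusted P = 0.00668). Its partner Rxra fell in both comparisons, which share the Model mice, by 0.47 in Model against Ctrl and by 0.62 in YHY against Model (adjusted P = 0.0329 and 0.0239). Ppargc1b, a coactivator, rose by 1.72 in Model, Rxrb rose by 0.49 and Ppard fell by 1.30, while Pparg (0.20) and Ppargc1a (0.33) did not pass. The size of the fall of Ppard leaned on Ctrl 1. Its level was 51.0, 16.8, 15.1 and 28.4 CPM in Ctrl 1 to 4 and 10.1 to 12.1 in Model. The corepressor Ncor1 fell by 0.49 in Model and rose by 0.62 in YHY against Model, from 59.8, 68.0, 58.5 and 62.5 CPM in Model 1 to 4 to 83.5, 90.6, 97.9 and 110.0 in YHY 1 to 4.

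PPAR alpha targets outside the peroxisome, 26 genes with 24 tested, did not share 1 direction: 3 were higher and 9 lower in Model against Ctrl, beside 19.6% and 18.5% of all genes. Of the same 24, 3 were higher in YHY against Model, beside 5.63% of all genes, and the other 21 did not pass. Among the higher ones in Model, Angptl4, a lipase inhibitor, rose by 1.43 and the thioesterase Acot2 by 1.06. Acot1, near Acot2 on chromosome 12, fell by 1.10 (adjusted P = 0.0322). The use of multi-mapping reads is not given, and any split of reads between these genes was not tested. Acadm and Etfdh of mitochondrial beta-oxidation fell by 1.70 and 1.17. In YHY against Model, Pdk4, a kinase that restrains pyruvate use, rose by 2.58, Angptl4 by 0.94 (adjusted P = 0.0496) and Plin2, a lipid droplet protein, by 0.74. Plin2 stood at 32.8, 57.7, 34.1 and 75.3 CPM in YHY 1 to 4, with YHY 1 and YHY 3 within the Model range of 24.0 to 34.2. In YHY against Ctrl 6 targets were higher and 5 lower (25.0% and 20.8%), near the 26.1% and 24.2% of all genes. Among the higher ones Creb3l3 and Fabp1 had at most 6 counts in a Ctrl mouse and 82 and 88 in YHY 4, against 0 to 28 in the other YHY mice.

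**Figure D5:**
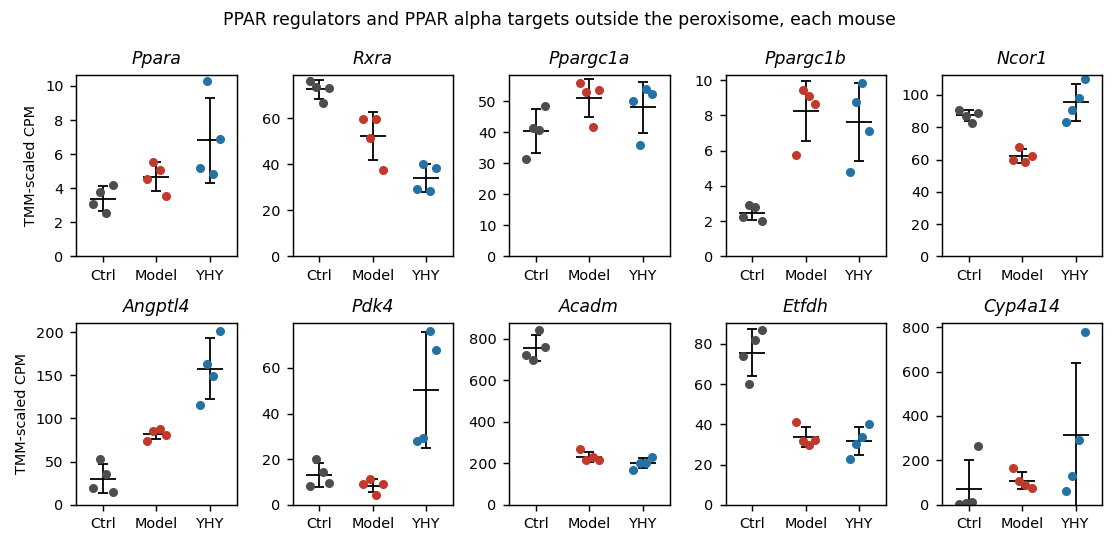
TMM-scaled CPM of 5 PPAR regulators or partners (Ppara, Rxra, Ppargc1a, Ppargc1b, Ncor1) and 5 PPAR alpha targets outside the peroxisome in each mouse, with mean and SD of 4 mice; axes start at 0. Rxra, Acadm and Etfdh are lower and Ppargc1b and Angptl4 higher in both db/db groups, and Cyp4a14 is high in Ctrl 4 and YHY 4 relative to their groups.

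Promoter windows of RefSeq (GRCm38.p6, 250 bases before to 50 after a start site) were found for 30 of the 38 genes, in 38 windows. They were searched on both strands for the PPAR response element, written as 2 copies of AGGTCA in direct repeat with any 1 base between, with at most 2 mismatches in the 12 fixed bases. Among all 32851 windows, 3.86% held a match, and so did 2 of the 38 windows here (5.26%), 1 of Cat and 1 of Acox2, a share near that of all promoters. Hsd17b4, Ephx2, Amacr, Abcd2, Abcd4, Pex19, Xdh and Pex2 had no window. The bases before the start site are shown for Cat, which holds the match, and for Ehhadh and Crot, which had large falls, with the best match in capitals. It has 2 mismatches in Cat and 4 in each of Ehhadh and Crot, a score reached by 74.5% of all promoters. They lie on the minus strand at chr2:103485154-103485403, chr16:21787835-21788084 and chr5:8997147-8997396. A match describes these letters and is no evidence of binding. Sequence outside the windows was not searched, so a window without a match says nothing about it.
Cat: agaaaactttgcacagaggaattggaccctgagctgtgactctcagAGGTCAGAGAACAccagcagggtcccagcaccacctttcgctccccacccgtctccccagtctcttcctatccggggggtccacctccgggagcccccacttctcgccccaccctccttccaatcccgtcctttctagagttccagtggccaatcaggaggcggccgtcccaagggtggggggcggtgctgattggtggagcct
Ehhadh: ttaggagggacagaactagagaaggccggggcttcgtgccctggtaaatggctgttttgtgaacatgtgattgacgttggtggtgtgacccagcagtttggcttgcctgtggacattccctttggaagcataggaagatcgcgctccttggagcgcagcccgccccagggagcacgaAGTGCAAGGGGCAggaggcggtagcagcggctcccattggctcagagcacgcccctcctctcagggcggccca
Crot: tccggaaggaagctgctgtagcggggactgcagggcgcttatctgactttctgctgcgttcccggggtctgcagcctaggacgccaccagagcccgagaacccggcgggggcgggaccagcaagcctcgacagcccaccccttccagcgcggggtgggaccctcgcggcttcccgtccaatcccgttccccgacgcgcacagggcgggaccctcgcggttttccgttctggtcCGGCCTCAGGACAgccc

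In the coordinates deposited with the counts (GRCm39 per the labels) Cat (ENSMUSG00000027187) lies at chr2:103284194-103315505, Ehhadh (ENSMUSG00000022853) at chr16:21580037-21606557, Crot (ENSMUSG00000003623) at chr5:9016033-9047324 and Amacr (ENSMUSG00000022244) at chr15:10981842-10996712. The 2 builds were not converted into each other.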

How the data were processed

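The authors deposited raw counts of reads per gene, with gene lengths and coordinates. The submitters' notes name FastQC 0.11.9, Trimmomatic 0.39, HISAT2 2.2.1, SAMtools 1.12, featureCounts 2.0.1, DESeq2 1.34.0, R 4.1.2 and GRCm39. The use of strand and of multi-mapping reads is not given there. The authors' comparison tables hold a normalized signal as group means, log2 fold changes, p-values and 12 columns of values per mouse. Of these, the group means alone were used: they equal averages of Ctrl 1, 3 and 4, of Model 2, 3 and 4 and of YHY 1, 2 and 3, which set the alternative with 9 mice. The fold changes, p-values and columns per mouse, and the pathway tables, were not used here.

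The test was the two-sided quasi-likelihood F test of edgeR 4.0.16 (R 4.3.3) on counts, after TMM scaling and filterByExpr, fitted once to the 3 groups, with Benjamini-Hochberg adjustment over all genes in the fit. Genes passed at an adjusted P under 0.05. SE is the log2 fold change divided by the root of F. The heat map adds 0.5 CPM before the log. No pair of libraries within a group matched within sampling noise (chi-square per degree of freedom 17.3 to 138.9).

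The 38 genes and all lists were chosen with earlier results of these data known. Each mouse's value is given, for Model against Ctrl and for YHY against Model, for the peroxins (up to 3), transporters (up to 2) and enzymes (up to 5) with the largest change that passed, for the 3 genes with the highest mean FPKM, and for Cat and Pex11a. In each other list up to 2 rises and 2 falls per comparison are named, and Ppara, Pparg, Ppargc1a and Rxra always. The values of 1 listed gene are not reported here. Slc34a1, Plin2, Acot1, Acot2, Dnm1l, Cyp4a14, Kcnj1 and C1qb were named after their values were seen, and so were Ehhadh and Crot for their promoters. Protein sequences were not analysed here. Alternatives used DESeq2 1.42.0, upper-quartile scaling, library size alone, removal of mitochondrial transcripts, no filter on low counts, the groups compared alone, 9 mice, a replicate block, each mouse left out, and a fold over 1.2 with an unadjusted P under 0.05. Other tools were limma 3.58.1, version 1.17.8 of data.table, Python 3.11.15, numpy 2.4.6 and matplotlib 3.10.9.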

Additional observations from a re-analysis of the deposited data

Results flagged for a closer look

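Among 123 groups of 4 mice looked at, 7 had 1 mouse far from the other 3, where chance gives about 1 in 20. Ctrl 4 was low in Acox3, at 104.8 CPM against 155 to 159.8 in the other Ctrl mice. It was low in Ephx2 too, at 248 CPM against 443 to 459.9. YHY 4 was high in Hsd17b4, at 119 CPM against 62.7 to 65.6 in the other YHY mice. Model 1 was low in Xdh, at 13.2 CPM against 19.4 to 20.5 in the other Model mice. Ctrl 2 was high in Paox, at 9.24 CPM against 4.71 to 5.24. In the percent of counts on mitochondrial transcripts, Ctrl 2 was high at 22.7%, against 18.4% to 18.6%, and YHY 2 at 64.6%, against 53.8% to 54.6%.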

How the results depend on the processing

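In Model against Ctrl, all 25 calls kept their direction and passed in each of 20 alternative fits. Leaving out single mice gave 22 to 25 lower, 3 higher and medians of -0.80 to -0.65. In those fits 14.4% to 20.9% of all genes were lower and 14.1% to 20.3% higher. There were 30 lower with library size alone and 28 with the groups compared alone, where 32.5% and 24.2% of all genes were lower. In YHY against Ctrl, Pex26 lost its call in 7 fits and Acaa1a in 3. There were 25 to 28 lower, 3 to 4 higher and medians of -1.03 to -0.81 when single mice were left out. Of all genes, 22.3% to 25.7% were then lower and 20.9% to 25.3% higher. Library size alone moved the median of the set to -1.07 for Model against Ctrl and to -1.27 for YHY against Ctrl, where the median of all genes went to -0.39 and -0.33 and the higher genes went from 51.5% to 21.4% and from 51.9% to 28.4% of those that passed. With upper-quartile scaling the median of all genes was 0.14 and 0.22. YHY against Model (5 lower, 2 higher) gave 3 and 1 with library size alone, 2 and 1 with the groups compared alone, 1 higher with 9 mice, and 9 lower with a fold over 1.2 and an unadjusted P under 0.05. Of all genes, 7.62% were lower in the main fit and 14.7% under that last rule. The share lower was 3.94% with library size alone and 4.20% with the groups compared alone, with 2.82% and 4.21% higher. With 9 mice 4.94% were higher. Leaving out single mice gave 2 to 6 lower and 1 to 4 higher, with medians of -0.30 to -0.09. The shares of all genes in those fits were 4.02% to 9.46% lower and 2.32% to 5.89% higher. There were 3 lower without Ctrl 1, Ctrl 2, Ctrl 3 or Model 4, and 2 without Model 1, 2 or 3 or YHY 1, 2 or 3. Of all genes, 5.93% to 7.06% were lower in the former fits and 4.02% to 6.14% in the latter. There was 1 higher without Ctrl 1, Ctrl 3, Model 2, 3 or 4, YHY 2 or YHY 4, and 4 without YHY 1. Of all genes, 2.32% to 5.89% were higher in the former fits and 4.84% in the latter. A replicate block gave 2 lower and 1 higher in YHY against Model and 22 and 3 in Model against Ctrl. With it 6.47% of all genes were lower and 4.55% higher in the former, and 17.7% and 18.4% in the latter. Same-numbered mice, however, share a number alone, with correlations of their deviations across genes of -0.173 to 0.125. Pex7, Amacr and Xdh kept their YHY against Model calls in all 20 fits. Among the genes of the set that passed, no value changed sign. The cause of these shifts was not tested. Abcd2, with 0 to 11 counts in a mouse, was too low to be tested.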

Other observations

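Markers of other cell types moved in several directions in Model against Ctrl, where 19.6% of all genes were higher and 18.5% lower, so a small count such as 1 of 4 lies near those shares. In the thick ascending limb 3 of 4 were lower, Umod, which encodes uromodulin, by 2.86 on the log2 scale, Cldn16 by 1.29 and Kcnj1. In the distal convoluted tubule 2 of 3 were higher, the magnesium channel Trpm6 by 2.07 and the salt transporter Slc12a3 by 1.33. In the collecting duct the water channels Aqp3 and Aqp2 were lower, by 1.72 and 1.18, among 6 markers. Aqp2 stood at 692, 364, 412 and 1133 CPM in Ctrl 1 to 4 and at 219 to 366 in Model. The size of its fall thus leaned on Ctrl 4, and Model 1 lay above Ctrl 2. Of 5 podocyte markers Nphs1 (1.86) and Synpo (0.53) were higher, of 5 endothelial markers Ehd3 (0.72) and Flt1 (0.67), and of 4 stromal markers Pdgfrb (0.51). Of 6 macrophage markers the complement genes C1qc (-1.62), C1qa (-1.08) and C1qb were lower and the lysosomal Cd68 higher (1.05). Of 4 tested liver markers Ttr (2.33) and Apoa1 (1.35) were higher, each with a group mean of at most 4.13 CPM, while Serpina1a was the most abundant of the 5 liver markers, which summed to 120.4 to 288 CPM in a mouse. The 5 adipocyte markers summed to at most 1.57 CPM.

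In YHY against Model, Gatm, which makes the precursor of creatine, fell by 1.92 and Slc7a13 by 1.11 among 14 proximal tubule markers, beside 7.62% lower among all genes. Gatm stood at 194, 125, 128 and 69.2 CPM in Model 1 to 4 and at 7.48, 31.2, 17.9 and 79.8 in YHY 1 to 4. YHY 4 thus lay above Model 4. Of 3 markers of the distal convoluted tubule Pvalb fell by 1.59, and of 6 of the collecting duct the proton pump gene Atp6v1g3 fell by 1.13. The others in these lists did not pass, among them Trpm6 (0.45) and Fxyd4 (1.00) with positive values. In YHY against Ctrl, 9 proximal tubule markers were lower, beside 24.2% of all genes, with Slc22a7 at -5.84 and Slc7a13 at -3.44, and Slc5a12 was higher (2.11). Slc5a12 stood at 11.6, 25.4, 23.4 and 3.69 CPM in Ctrl 1 to 4 and at 9.12, 24.7, 19.1 and 223 in YHY 1 to 4, so YHY 4 alone lay above the Ctrl range. Among podocyte markers Nphs1 (1.62), Wt1 (1.31) and Synpo were higher and Podxl lower (-0.999) there. Cyp4a14, a PPAR alpha target that makes hydroxy fatty acids, stood at 3.46, 9.55, 11.3 and 266 CPM in Ctrl 1 to 4, at 164, 107, 90.2 and 74.4 in Model 1 to 4 and at 64.0, 131, 291 and 778 in YHY 1 to 4. Ctrl 4 was above every Model mouse and YHY 4 above the 11 others, and Cyp4a14 did not pass in any of the 3 comparisons.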
